A study of Mus musculus with 4 samples.

Results

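Amn, Ctsh, Ttr, Cited1 and Spink1 are 5 genes grouped by name as genes of the visceral endoderm, and they were read here in mouse embryonic stem (ES) cells that carry either of 2 mutations of fosB. They were chosen by name, with the ratios of these same arrays already known, from genes whose ratios lay on the positive side in both mutants, and every probe annotated to 1 of them alone was kept. That gave 6 of the 9480 probes, 2 for Amn and 1 for each of the others, out of 6025 genes with a probe of their own. Because the ratios chose the genes, the values below are a description of these arrays and carry no test.

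The visceral endoderm is the outer epithelium of the early mouse embryo. It takes up maternal proteins and vitamins by endocytosis, digests them in lysosomes, and secretes carrier proteins before the liver exists. Amn (amnionless) is the membrane partner of cubilin, with which it forms a receptor for intrinsic factor and vitamin B12. Ctsh (cathepsin H) is a lysosomal cysteine protease. Ttr (transthyretin) is secreted and carries thyroid hormone and, with retinol-binding protein, retinol. Spink1 is a secreted inhibitor of trypsin of the Kazal type, and Cited1 is a nuclear co-regulator of transcription that binds CBP and p300 and has no DNA-binding domain of its own. The product of fosB pairs with JUN proteins to form AP-1, a transcription factor that serum induces.

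The series held 4 cDNA arrays with 2 colours each. On 2 of them RNA of fosBd/d ES cells was set against wild-type RNA, and on the other 2 RNA of fosB-null ES cells. The fosBd/d cells are homozygous for an allele that encodes only ΔFosB, the truncated form, and fosB-null cells carry the null mutation. All cells, wild type included, were grown without feeder cells and, per the series title, were starved of serum for 72 h and then given serum for 4 h. The dyes were exchanged between the 2 arrays of a mutant. The labels do not give the number of clones or cultures behind each line, nor whether both arrays of a swap used the same extracts, so the SD over 2 arrays may measure technical spread alone.

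Each value is the log2 of the ratio between the channels of an array. The arrays had medians of 0.00 and log2 SDs from 0.44 (fosB-null replicate 1) to 0.82 (fosBd/d replicate 1), and the number of arrays limits the precision. Ratios hold no level, so neither the ES cell identity nor the presence of visceral endoderm cells could be read from marker levels. In bulk RNA, fewer cells of a type and less RNA per cell cannot be told apart.

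The direction of the fosB-null ratios is not settled. Exact zeros carried a minus sign on fosBd/d replicate 1 and fosB-null replicate 2, a trace of multiplication by -1, so 1 array of each swap was apparently sign-turned before deposit. Over all probes, the replicate 1 arrays of the mutants, which carry the mutant in the same dye, had a correlation of -0.463, and the replicate 2 arrays one of -0.369. The 2 arrays of a mutant also ran opposite to each other over all probes as deposited, with a correlation of -0.125 in fosBd/d and -0.318 in fosB-null (0.125 and 0.318 with the apparent turning undone). Read by the dye names, a positive value means more RNA in fosBd/d and less RNA in fosB-null. A single mutant-over-wild-type convention gives more RNA in both, and the labels' colour words, which call Cy3 red, turn fosBd/d instead. Positive fosBd/d values are therefore called likely higher in the mutant, fosB-null values are given by sign, and differences between the mutants are given both ways.

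Promoter sequence was available for 2 of the 5 genes in the RefSeq table for GRCm38.p6, Amn with 1 start and Cited1 with 3. The 250 bases before the Amn start (chr12:111270846-111271095, + strand) and before the outermost Cited1 start (chrX:102252182-102252431, - strand) are shown because these genes lay on the positive side together and FosB acts through promoter and enhancer sites. Both are written 5′ to 3′ on the strand of the gene, with capitals for a match to any motif searched.
Amn: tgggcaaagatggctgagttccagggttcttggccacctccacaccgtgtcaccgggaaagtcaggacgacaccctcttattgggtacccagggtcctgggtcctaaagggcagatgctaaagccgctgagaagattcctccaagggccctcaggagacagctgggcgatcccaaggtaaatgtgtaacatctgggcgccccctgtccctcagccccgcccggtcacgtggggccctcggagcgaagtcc
Cited1: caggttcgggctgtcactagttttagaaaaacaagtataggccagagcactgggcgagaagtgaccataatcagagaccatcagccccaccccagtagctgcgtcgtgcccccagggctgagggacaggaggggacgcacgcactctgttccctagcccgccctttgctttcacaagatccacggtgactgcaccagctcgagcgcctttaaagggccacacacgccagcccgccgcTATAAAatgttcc

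The motifs were searched on both strands as TGANTCA for AP-1, AGATAA for GATA factors, TGTTTAC for FOXA, CAAAGTCCA for HNF4, GTTAAT for HNF1 and TATAAA for the TATA box. Over the 32851 promoters of the table, 6.75% held the AP-1 letters, 9.99% those of GATA, 3.17% those of FOXA, 0.384% those of HNF4, 6.43% those of HNF1 and 12.4% those of the TATA box. The Amn window held 0 matches to any of them. The Cited1 window held 1, the TATA letters beginning 13 bases before the start, and 0 to the other 5. Before the second Cited1 start the TATA letters began 115 bases away, and the window of the third start held 0 matches. The letters searched are thus not in these windows apart from TATAAA, which says nothing of any factor elsewhere. GC content was 61.2% in the Amn window and 58.0% in the outermost Cited1 window, beside a median of 52.4% over all promoters.

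In both mutants, 5 of the 6 probes lay on the positive side on every array, as did 4.25% of all probes. Their means ran from 1.30 to 1.63 in fosBd/d and from 0.99 to 1.503 in fosB-null. Of their 20 values, 19 were at least 2-fold, the exception being Ttr on fosB-null replicate 2. Over all probes, 1.24% were at least 2-fold positive on both fosBd/d arrays, 0.158% on both fosB-null arrays and 0.0422% (4 probes) on all 4 arrays. Those 4 probes were the leading probes of Amn, Ctsh, Cited1 and Spink1, which is how the genes came to be chosen, and nothing further is read from the count.

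**Figure D1:**
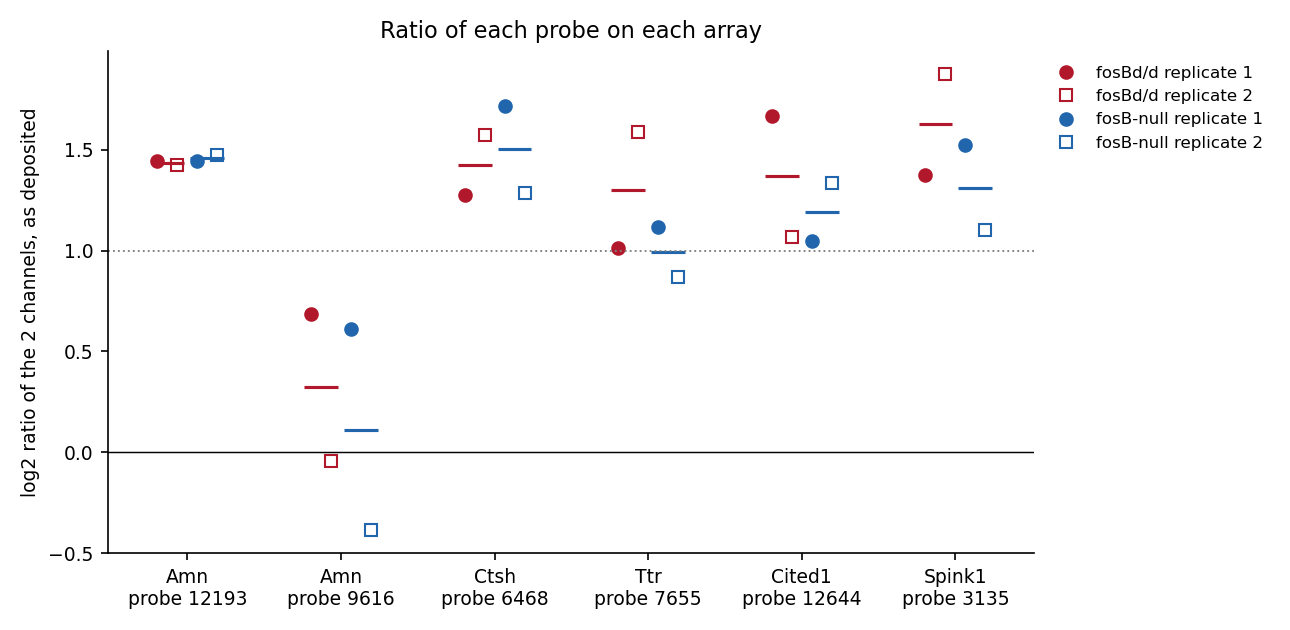
Log2 ratio of each probe (vertical axis, as deposited) for the 5 genes on each of the 4 arrays. Circles are replicate 1, open squares replicate 2, short bars the mean of a mutant, and the dotted line marks 2-fold. Amn probe 12193 lies within 1.43 to 1.48 on all arrays, whereas Amn probe 9616 spans 0.69 to -0.39.

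The uptake receptor subunit Amn was read by probes that disagreed. Probe 12193 stood at 1.44 and 1.43 on fosBd/d replicates 1 and 2, and at 1.44 and 1.48 on fosB-null replicates 1 and 2. The mutants overlapped, with no array apart from the others, and the means were 1.44 ± 0.01 (SD, n = 2) or 2.71-fold in fosBd/d and 1.46 ± 0.02 or 2.75-fold in fosB-null. Probe 9616 stood at 0.69 and -0.04 in fosBd/d and at 0.61 and -0.39 in fosB-null, so it was positive on replicate 1 and negative on replicate 2 of both mutants. Its means were 0.32 ± 0.51 and 0.11 ± 0.70, both smaller than their SD. Averaged over both probes, Amn stood at 0.88 ± 0.26 in fosBd/d and 0.79 ± 0.34 in fosB-null.

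The means of the Amn probes lay 1.11 apart in fosBd/d and 1.35 apart in fosB-null, beside median gaps of 0.28 and 0.19 over the 502 genes with several probes. A gap at least as wide was found in 6.57% of those genes on the fosBd/d arrays and in 0.398%, 2 genes with Amn itself counted, on the others. Which Amn probe follows the Amn transcript was not tested, since the probe sequences were not used here.

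The lysosomal protease Ctsh had ratios of 1.28 and 1.57 on the fosBd/d arrays and of 1.72 and 1.29 on the fosB-null arrays. The ranges of the mutants overlapped. The means were 1.42 ± 0.21 (2.68-fold) and 1.503 ± 0.305 (2.83-fold), the latter being the highest fosB-null mean of the 5 genes.

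Spink1, the trypsin inhibitor, stood at 1.38 and 1.88 in fosBd/d and at 1.52 and 1.10 in fosB-null. The mean of 1.63 ± 0.35 (3.09-fold) was the highest of the 5 genes in fosBd/d, and that in fosB-null was 1.31 ± 0.30 (2.48-fold). One fosB-null array lay between the fosBd/d arrays and the other below them.

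The carrier protein Ttr had 1.01 and 1.59 in fosBd/d and 1.12 and 0.87 in fosB-null. Its means, 1.30 ± 0.41 (2.46-fold) and 0.99 ± 0.17 (1.99-fold), were the lowest among the leading probes in both mutants. Of the fosB-null arrays, replicate 1 lay within the fosBd/d range and replicate 2 below it.

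Cited1, the co-regulator, differed from Ctsh, Ttr and Spink1 in which array was the higher. It stood at 1.67 and 1.07 in fosBd/d and at 1.05 and 1.34 in fosB-null, so replicate 1 was the higher in fosBd/d and the lower in fosB-null. The means were 1.37 ± 0.42 (2.58-fold) and 1.19 ± 0.20 (2.29-fold), and the ranges overlapped.

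In fosBd/d the order of the means ran from Spink1 through Amn probe 12193, Ctsh and Cited1 to Ttr, and each neighbouring pair differed by less than the larger SD of the pair. In fosB-null it ran from Ctsh through Amn probe 12193, Spink1 and Cited1 to Ttr, and here too each step was smaller than the larger SD of the pair. No neighbours in either order differed beyond their spread.

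For each mutant, the mean of the arrays as deposited is called the mutant part, and the mean with the apparent turning undone is called the dye part. Each dye orientation rests on a single array of a mutant. The size of the dye part is therefore the gap between those arrays, already given by the SD, on another scale and with a sign. Dye bias cannot be told from any other difference between the arrays, so no dye effect is read from it. For the 5 leading probes the dye part was between -0.30 (Cited1) and 0.29 (Ttr) in fosBd/d, and between -0.14 (Cited1) and 0.22 (Ctsh) in fosB-null. Its median size over these probes was 0.25 in fosBd/d and 0.14 in fosB-null, beside 0.23 and 0.20 over all probes. For each of the 5, the dye part had the same sign in both mutants, positive for Ctsh, Ttr and Spink1 and negative for Cited1 and Amn probe 12193. That likeness rests on undoing the apparent turning; coded by the dye orientation in the labels, the signs differ between the mutants. For Amn probe 9616 it was -0.36 in fosBd/d and 0.50 in fosB-null, in each case larger than the mutant part.

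**Figure D2:**
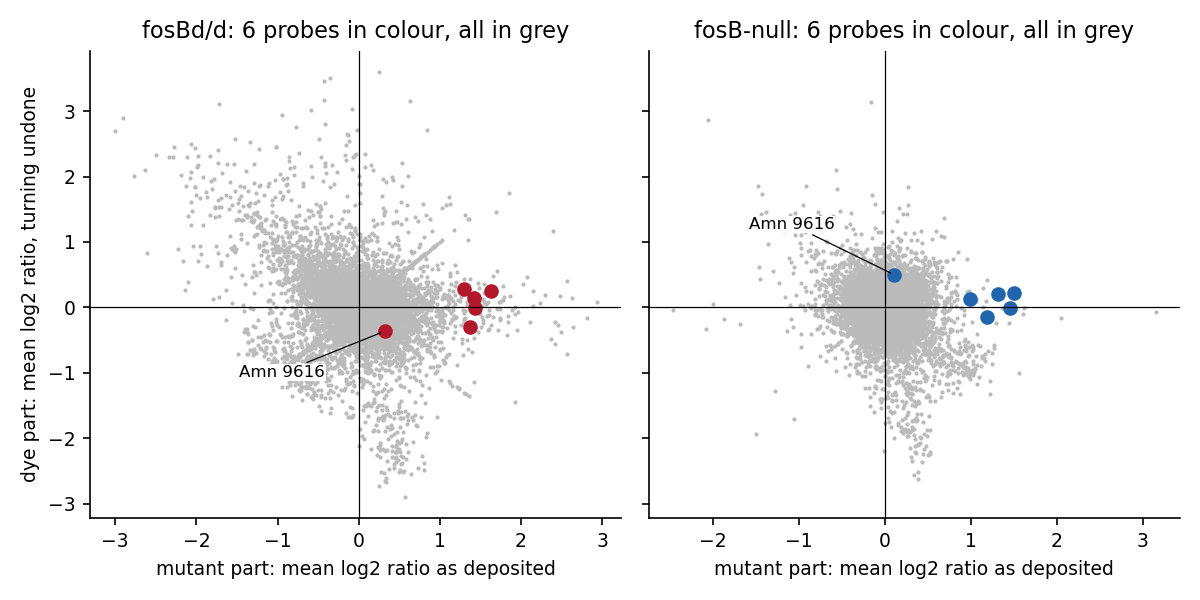
Mutant part (horizontal axis, mean log2 ratio as deposited) and dye part (vertical axis, mean log2 ratio with the apparent turning undone) of every probe in fosBd/d (left) and fosB-null (right), with the 6 probes of the 5 genes in colour. The 5 leading probes have dye parts between -0.30 and 0.29, while their mutant parts are 0.99 or more. These probes are positive on every array, so a dye part smaller than the mutant part follows from that. The dye part also holds any other difference between the arrays of a mutant.

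By the mean of both arrays, the same ratio held a different place in each mutant. The fosBd/d arrays were more widely spread, and there the leading probes ranked 48 (Spink1), 80 (Amn), 82 (Ctsh), 91 (Cited1) and 111 (Ttr) from the top of the 9480 probes. In fosB-null they ranked 7 (Ctsh), 9 (Amn), 12 (Spink1), 22 (Cited1) and 56 (Ttr). High ranks follow from the choice of the genes. On single arrays the ranks were 219 to 595 and 91 to 394 on fosBd/d replicates 1 and 2. On fosB-null replicates 1 and 2 they were 11 to 114 and 237 to 545, so the contrast between the mutants did not hold on replicate 2. On fosB-null replicate 1, 4 of the 5 exceeded the 99th percentile of the array, 1.11, and on the other 3 arrays 0 or 1 did.

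**Figure D3:**
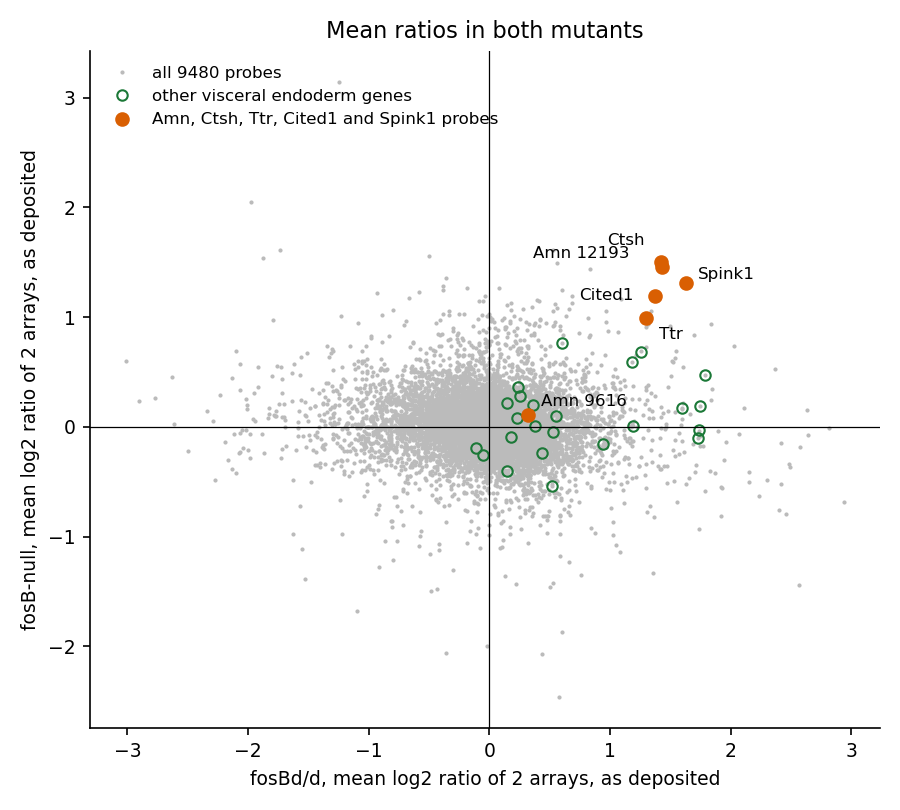
Mean log2 ratio of 2 arrays in fosBd/d (horizontal axis) and fosB-null (vertical axis), both as deposited, for all 9480 probes (grey points), the 24 other visceral endoderm genes measured (green rings) and the 6 probes of the 5 genes (orange). The 5 leading probes lie together at 1.30 to 1.63 and 0.99 to 1.503, higher in fosB-null than every green ring, the highest of which is Dkk1 at 0.77. The 5 genes were chosen for positive ratios in both mutants, so this position follows from the choice.

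As deposited, the mutants stood close to each other in these genes. The fosBd/d mean minus the fosB-null mean was -0.02 ± 0.02 (SE from the spread within each mutant) for Amn probe 12193 and -0.08 ± 0.26 for Ctsh. It was 0.30 ± 0.31 for Ttr, 0.18 ± 0.33 for Cited1 and 0.32 ± 0.33 for Spink1. Each of these differences but that of Amn was smaller than its SE, and that of Amn was 0.02 in size against an SE of 0.02. For Amn probe 9616 it was 0.21 ± 0.62. Quantile normalization turned the sign for Ttr, Cited1 and Spink1, to -0.16, -0.27 and -0.22, and scaling to equal median absolute deviation turned it for Cited1 and Spink1, to -0.14 and -0.008.

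With the fosB-null sign turned, which is the reading by the dye names, the mutants stood far apart. The fosB-null means became -1.46 for Amn probe 12193, -1.503 for Ctsh, -0.99 for Ttr, -1.19 for Cited1 and -1.31 for Spink1, ratios of 0.363, 0.353, 0.502, 0.437 and 0.403. The fosBd/d mean then exceeded the fosB-null mean by 2.90 for Amn, 2.93 for Ctsh, 2.29 for Ttr, 2.56 for Cited1 and 2.94 for Spink1, with the same SEs. Spink1, Ctsh and Amn ranked 1, 2 and 3 of all probes in that difference, Cited1 10 and Ttr 15. That difference is the sum of the deposited means by which the genes were chosen, so these high ranks follow from the choice. Read by the colour words, these differences have the other sign. Both comparisons used wild-type cells as the control, so they are not independent.

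Ranked by the lowest of the 4 values as deposited, Amn, Ctsh, Spink1 and Cited1 were the first 4 of the single-gene probes, with lowest values of 1.43, 1.28, 1.10 and 1.05. Ttr was in position 7 at 0.87. Between them stood Plac1, a placental gene, at 0.96 and Lgmn (legumain, a lysosomal protease) at 0.88. Right after Ttr came Car4 (carbonic anhydrase 4) at 0.66, Mttp (which loads lipid onto apolipoprotein B) at 0.64 and Habp2 at 0.60. Gsdmc2, Myo7a, Hhipl2, Me1, Car2, Ctsl and Cd55 followed, from 0.59 down to 0.43. The second Amn probe stood at position 3143 with a lowest value of -0.39. This ranking rests on the fosB-null sign: with it turned, the 5 leading probes stood at positions 5724 (Ttr) to 6206 (Ctsh) of 6566, and Thbd (thrombomodulin, in the parietal endoderm list) was first at 1.01. Thbd was then the 1 probe at least 2-fold positive on all 4 arrays, and 0 of the 5 genes were.

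**Figure D4:**
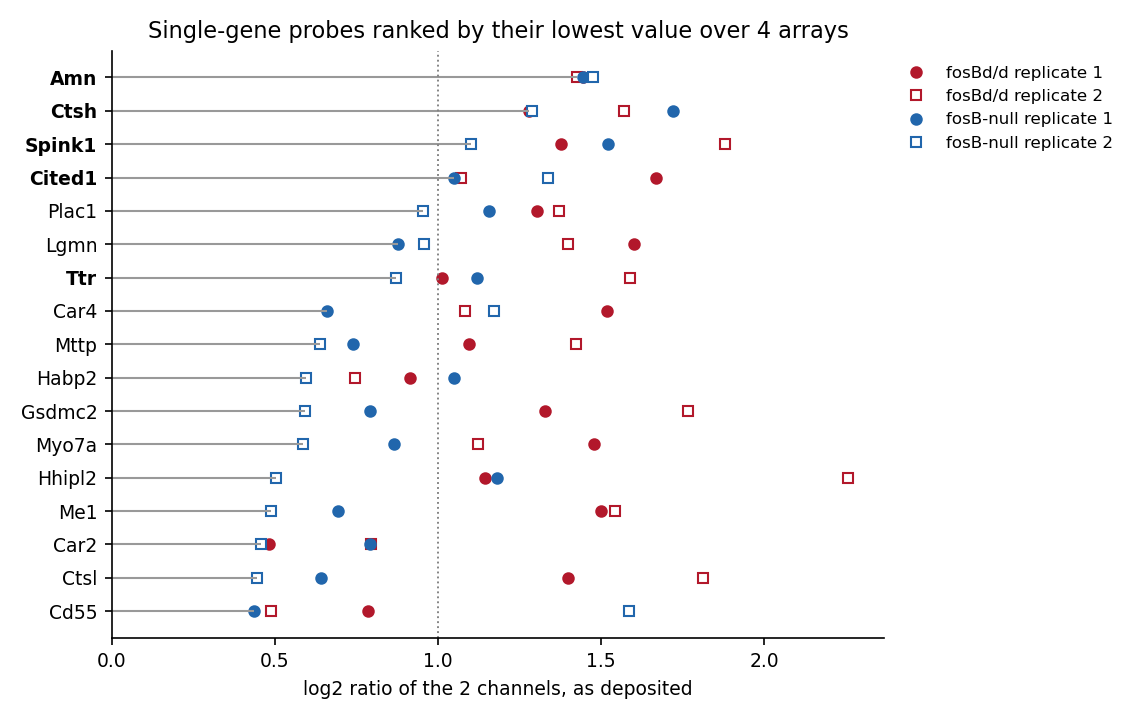
Log2 ratios (horizontal axis, as deposited) on the 4 arrays for the 17 single-gene probes with the highest lowest value, in that order from the top, with the 5 genes in bold. The grey line ends at the lowest value, and the dotted line marks 2-fold. Only the first 4, Amn, Ctsh, Spink1 and Cited1, have all 4 points at or beyond it.

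Likeness of pattern was measured as the Euclidean distance over the 4 log2 ratios from the median profile of the 5 genes, whose values were 1.28 and 1.57 in fosBd/d and 1.12 and 1.10 in fosB-null. Of the 6560 other single-gene probes, the nearest was Plac1 at a distance of 0.25, with 1.30, 1.37, 1.16 and 0.95. Lgmn followed at 0.46 with 1.60, 1.40, 0.88 and 0.96. Then came Gsdmc2 (0.64), Mttp (0.64), Car4 (0.72), Myo7a (0.76), Me1 (0.78), Dpp4 (0.85), Ctsl (0.85) and Hhipl2 (0.92). In each of these 10, the fosBd/d mean was above the fosB-null mean as deposited. By single genes, Plac1 was the nearest probe to Amn probe 12193, Ctsh, Ttr and Spink1, at 0.61, 0.68, 0.38 and 0.65, and Car4 was the nearest to Cited1 at 0.45. Amn probe 9616 had other neighbours, Gata1 (0.25), Itih4 (0.25) and Maf (0.31).

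Of 48 other visceral endoderm genes listed, 24 had a probe. In fosBd/d, 14 of the 24 were positive on both arrays and 1 negative, beside 25.0% of all genes positive and 24.2% negative, and the median was 0.53 beside -0.02 over all genes. At least 2-fold positive on both were 8, beside 1.53% of all genes. In fosB-null, 8 were positive and 7 negative on both arrays, beside 19.5% and 21.9%, with a median of 0.05 beside 0.00, and 0 were at least 2-fold, beside 0.166%. On all 4 arrays 0 of the 24 were at least 2-fold positive, beside 0.0498% of all genes (3 genes, all of them among the 5, since the Amn probes are averaged here). The 5 were left out of the list, so this 0 was fixed in advance and nothing is read from it. In limma 0 of the 24 passed in either mutant at an adjusted p under 0.05, as did 0 of all 6025 genes, while 12 of the 24 in fosBd/d and 3 in fosB-null had an unadjusted p under 0.05, beside 1172 and 411 of all genes.

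The highest of these genes in fosBd/d reached or passed the 5 genes there but not in fosB-null. The 5 were chosen for positive ratios in both mutants and the listed genes were not, so the contrast in fosB-null follows from the choice. Lrp2 (megalin, the endocytic receptor that works with cubilin and amnionless) stood at 1.67 and 1.90 in fosBd/d and at 0.33 and 0.62 in fosB-null. Gata6, a transcription factor of primitive endoderm, had 1.95 and 1.55 against -0.27 and 0.64. Krt8, an epithelial keratin, had 1.66 and 1.82 against -0.12 and 0.05. All of these had lower values on both fosB-null arrays than on either fosBd/d array, as deposited. At the other end, the apolipoproteins Apoc2 and Apoa2 and the secreted antagonist Cer1 had fosBd/d means of -0.11, -0.05 and 0.14. Lrp2, Cldn6, Mttp, Dpp4 and Dkk1, singled out after their values were seen, were the 5 of the 24 positive on all 4 arrays, beside 4.58% of all genes.

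**Figure D5:**
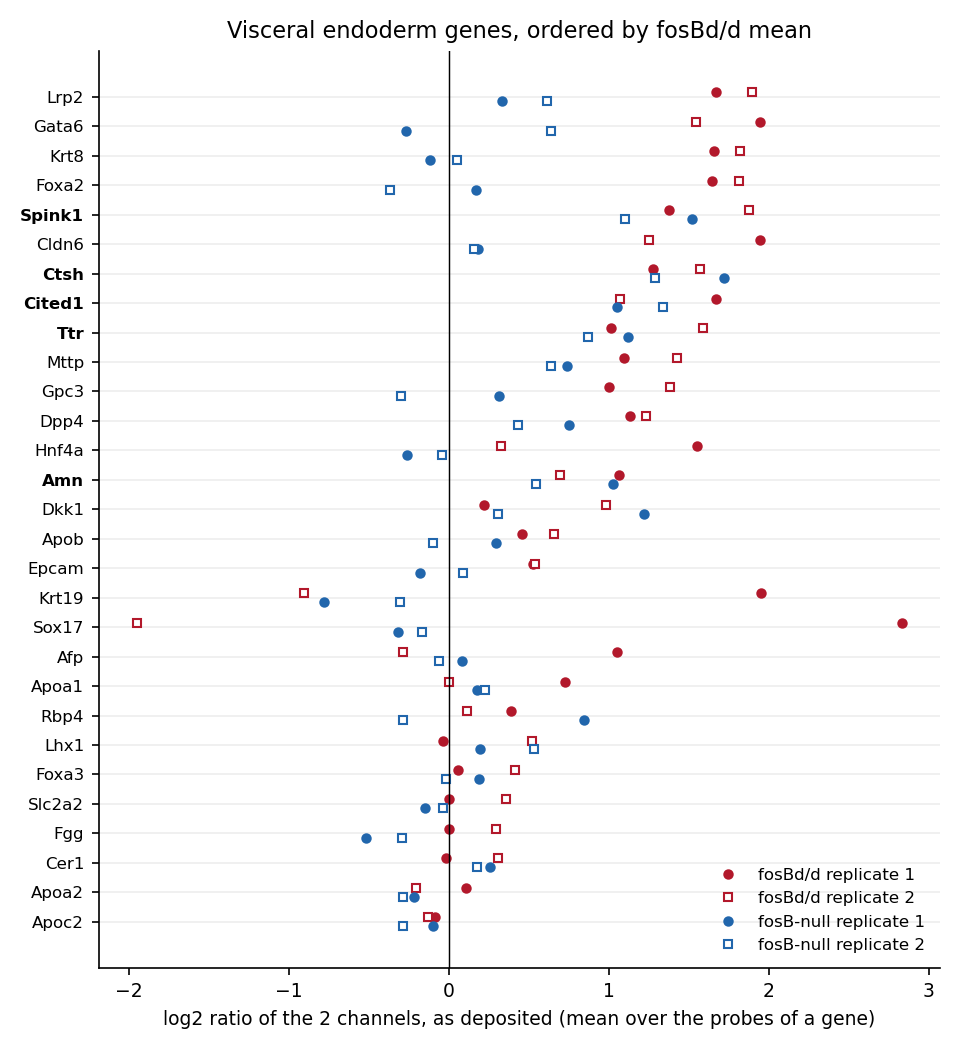
Log2 ratios (horizontal axis, as deposited, mean over the probes of a gene) on each array for the 5 genes (bold) and the 24 other visceral endoderm genes measured, ordered by fosBd/d mean. Red symbols are fosBd/d and blue fosB-null. In Lrp2, Gata6, Krt8 and Foxa2 the blue symbols lie at 0.64 or lower while the red ones lie at 1.55 or higher, and in Spink1, Ctsh, Cited1 and Ttr the colours overlap.

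The proteins with which the 5 gene products act were measured in part. Counts of positive and negative genes in their lists, here and in the next paragraph, stand beside 25.0% and 24.2% of all genes in fosBd/d. In fosB-null those shares were 19.5% and 21.9%. No list was tested as a set. Of 20 genes of cubilin-type uptake and clathrin endocytosis, 7 had a probe, and 3 were positive on both arrays in fosBd/d and 3 in fosB-null, with medians of 0.16 and 0.14. Beside Lrp2, its chaperone Lrpap1 stood at 0.78 ± 0.02 and 0.33 ± 0.02 and the vitamin B12 carrier Tcn2 at 0.76 ± 0.20 and -0.03 ± 0.21. Of 21 cathepsins and cystatins, 13 had a probe, with 5 positive and 3 negative on both arrays in fosBd/d and 5 and 1 in fosB-null, and medians of -0.14 and 0.20. Among them Ctsl stood at 1.60 ± 0.29 in fosBd/d and 0.54 ± 0.14 in fosB-null and Lgmn at 2.83-fold (log2 SD 0.14) and 0.92 ± 0.06, while Ctsf and Ctse, at -0.90 ± 1.12 and -0.52 ± 1.45 in fosBd/d, differed widely between arrays. The fosB-null mean of Ctsh was above those of all 13, but Ctsh was chosen for its positive ratios in both mutants.

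Of 18 plasma carrier proteins 8 had a probe, with 2 positive and 1 negative on both arrays in each mutant and medians of 0.12 and 0.09. Rbp4, the retinol carrier that binds Ttr, stood at 0.39 and 0.11 in fosBd/d and 0.84 and -0.29 in fosB-null, and Afp at 1.05 and -0.29 and at 0.08 and -0.06. The values of neither gene had 1 sign on all 4 arrays. Of 13 partners of the CITED proteins 7 had a probe, with 3 positive and 1 negative on both arrays in fosBd/d and 0 and 1 in fosB-null. The relative Cited2 stood at 1.30 and 1.90 in fosBd/d, beside Cited1 at 1.67 and 1.07, and at 0.40 and -0.25 in fosB-null, below both Cited1 values. Of 26 serine proteases and their inhibitors 11 had a probe, with 3 positive and 3 negative in fosBd/d and 1 and 7 in fosB-null. Spink4, of the same Kazal inhibitor family, was negative on all 4 arrays, with -1.05 and -1.70 in fosBd/d and -0.06 and -0.32 in fosB-null. Reck, a membrane protein with Kazal motifs, had mixed signs, with -1.20 and 0.33 in fosBd/d and 0.20 and -0.24 in fosB-null.

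Of these partner lists, 0 genes passed limma in either mutant at an adjusted p under 0.05. In the order given, 3 of 7, 6 of 13, 3 of 8, 2 of 7 and 2 of 11 had an unadjusted limma p under 0.05 in fosBd/d. The counts in fosB-null were 0, 2, 1, 1 and 1. Of all 6025 genes, 1172 had such a p in fosBd/d and 411 in fosB-null. Among all genes the smallest adjusted p in limma was 0.195 in the fosBd/d comparison and 0.618 in the fosB-null comparison.

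Markers of another endoderm type lay on the positive side in fosBd/d together with the 5 genes. Of 16 parietal endoderm genes 13 had a probe, and 11 were positive on both fosBd/d arrays, all of them at least 2-fold, with a median of 2.03. Over all genes, 25.0% were positive and 1.53% at least 2-fold positive on both fosBd/d arrays. The median of the 13 in fosB-null was -0.35. There 8 of the 13 had a negative sign on both arrays and 1 a positive one, beside 21.9% and 19.5% of all genes. The collagen IV chain Col4a1 had 2.30 and 2.66 in fosBd/d and -0.16 and -0.51 in fosB-null. So on the fosB-null arrays the 5 genes and most parietal endoderm genes had opposite signs, whichever way the ratio runs. The sign of the 5 there was set by the choice of genes. Pluripotency genes (9 of 18 measured) had 2 positive and 4 negative in fosBd/d and 1 and 6 in fosB-null. For feeder fibroblast genes (12 of 17) these counts were 5 and 4 and then 0 and 4. Trophoblast genes (8 of 15) had 3 and 1 and then 1 and 1. Among all genes, 25.0% were positive and 24.2% negative on both fosBd/d arrays, and 19.5% and 21.9% on both fosB-null arrays. Plac1 was the trophoblast gene positive on all 4 arrays. The part of any cell type in the ratios of the 5 genes was not tested.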

How the data were processed

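The authors deposited 1 log10 ratio of the channels per probe and array, made with Agilent Feature Extraction per the submitters' processing notes. The log base rests on that software's definition. Its version, dye normalization, background treatment and filters were not given in the sources used here. Intensities were not analysed. Values were multiplied by the log2 of 10. Probes were named from a platform annotation of 2007 with symbols updated through RefSeq identifiers (6496 of 6566 single-gene probes matched, 70 kept the older name), and probes with several genes (392) or none (2522) were left unnamed. Replicates were numbered in accession order.

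Members, lists and motifs were chosen with earlier results of these data known. Named genes were all member probes, the 3 highest and 3 lowest of each list in fosBd/d, direct partners, the nearest patterns and the probes ranked next by their lowest value. For lists, probes were averaged per gene.

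The linear model (limma 3.58.1, R 4.3.3, two-sided, Benjamini-Hochberg threshold 0.05) covered all probes on the 4 arrays, with both mutants and the dye, coded by the apparent turning, as terms, leaving 1 residual degree of freedom. It was run on simulated data, where recovery of the changed probes was required only at a small variance. Which fold changes it could find at the spread of these arrays is not reported here. Of 9480 probes, 0 passed in either mutant, and 1503 (fosBd/d) and 578 (fosB-null) had an unadjusted p under 0.05. Other values were computed in Python 3.11.15 with pandas 2.3.3. Alternatives were array scaling, quantile normalization, exact zeros, the dye term, fold thresholds, the fosB-null sign and each array left out.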

Additional observations from a re-analysis of the deposited data

Results flagged for a closer look

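With the fosB-null sign turned, both arrays of fosBd/d were positive and both of fosB-null negative for the 5 leading probes. The difference between the mutants was then 2.94 for Spink1, 2.93 for Ctsh, 2.90 for Amn probe 12193, 2.56 for Cited1 and 2.29 for Ttr, on the log2 scale. By the same pattern Lrp2 differed by 2.26, and Apoc2, negative on both fosBd/d arrays, by -0.30. These differences were not tested, and they rest on a direction that is not settled. For the 5 leading probes each difference is the sum of the deposited means by which the genes were chosen, so its size follows from that choice. As deposited, the 5 leading probes and Lrp2 were positive, and Apoc2 negative, on all 4 arrays. Amn probe 9616 was negative on replicate 2 of both mutants.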

How the results depend on the processing

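Turning the sign of the fosB-null ratios reversed the fosB-null means of the leading probes, to -1.46 (Amn probe 12193), -1.503 (Ctsh), -0.99 (Ttr), -1.19 (Cited1) and -1.31 (Spink1), and fosBd/d minus fosB-null was 2.90, 2.93, 2.29, 2.56 and 2.94. With arrays scaled to equal median absolute deviation, Amn probe 12193 stood at 1.28 in fosBd/d and 1.64 in fosB-null, a difference of -0.36. Quantile normalization gave it 1.28, 1.79 and -0.51, raised the fosB-null means of Ctsh (1.88), Ttr (1.34), Cited1 (1.46) and Spink1 (1.69), and put the differences at -0.60 for Ctsh, -0.16 for Ttr, -0.27 for Cited1 and -0.22 for Spink1. Values smaller than their spread changed sign too: the difference for Cited1 was -0.14 and that for Spink1 -0.008 under equal deviation, and without fosBd/d replicate 1 that for Cited1 was -0.12 and that for Ctsh 0.07. Without fosB-null replicate 1 the Ctsh difference was 0.14 and the visceral endoderm median in fosB-null -0.03. Amn probe 9616 changed sign with 1 of fosBd/d replicate 1 or either fosB-null array left out. The scalings act on the unequal spread of the arrays.

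Probes positive on both arrays at the threshold numbered 118 in fosBd/d, 15 in fosB-null and 4 in both mutants at 2-fold. They numbered 314, 55 and 13 at 1.5-fold and 34, 3 and 0 at 3-fold, and with the fosB-null sign turned 8 in fosB-null and 1 in both. Without 1 array the rule rests on the remaining one, and the counts were 456 to 609 in fosBd/d, 130 to 443 in fosB-null and 4 to 11 in both: 9 without fosBd/d replicate 1, and 11 or 9 when replicate 1 or 2 of fosB-null was left out. Amn, Ctsh, Cited1 and Spink1 met it without any 1 array, and Ttr without fosB-null replicate 2. This was fixed in advance, since the leading probes of those genes were at least 2-fold on every array and Ttr on all but that one. Nothing is read from it. Leaving out an array moved the visceral endoderm median in fosBd/d to 0.465 and 0.865 (the latter without replicate 2), and the number positive in fosB-null to 11 and 14 (the latter without replicate 2). Limma called 0 probes under every setting. The labels carry no replicate numbers, but their titles match arrays of like dye orientation across the mutants. That match was used as a replicate block in place of the dye term coded by the apparent turning, a choice made after seeing the data. In this design the block is the same term as a dye term coded by the labels. With it limma again called 0 probes, and those with an unadjusted p under 0.05 numbered 270 in fosBd/d and 47 in fosB-null, beside 1503 and 578. In all, 132 alternative values stayed within 1 SD or 1.5 times the count, 35 moved further, and 5 larger than their SD changed sign. Of the 132, 18 with exact zeros treated as missing could not move, since no member value was an exact zero. Another 4, with each probe on its own, could not move because each listed visceral endoderm gene had 1 probe. The means and differences of the member probes with 1 array left out could not move either. With 2 arrays a mutant, leaving 1 out shifts a mean by less than its SD, so staying within 1 SD is no sign of stability there. With 2 arrays a mutant and ratios alone, weak signals cannot be told from absent ones.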
